A study of Mus musculus with 4 samples.

Results

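The genes described here are 8 mouse genes of meiotic recombination and crossing over, namely Spo11, Dmc1, Msh4, Msh5, Hfm1, Rnf212, Ccnb1ip1 and Mlh3, out of 37718 gene rows counted in the series. They were chosen by name, and every deposited row of theirs was used. They hold 122 of 207562 introns, 183 of 359565 exon segments (the pieces into which overlapping exons are cut), 149 of 240574 annotated splice junctions and 6 of 5005 unannotated junctions. RNA was sequenced from testis cells at 20 dpp, purified on magnetic columns by the surface marker hCD4 and described by the study as diplotene spermatocytes. Per the study most cells of such preparations, but not all, were diplotene. It also counted secondary spermatocytes and round spermatids in them, and reported no significant difference between the genotypes. There were 2 Tdrd6+/- samples and 2 Tdrd6-/- samples, each labelled as testes pooled from several mice. The Tdrd6+/- samples carry a mutant allele too, and no wild type samples were analysed here. All 4 samples share the hCD4 marker, which per the study the promoter of Tdrd6 drives, so the cells were selected by the activity of the promoter of the gene under study. The study asked whether splicing is impaired in diplotene cells that lack TDRD6, a multi-Tudor protein of the chromatoid body of male germ cells.

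In meiotic prophase the topoisomerase-like enzyme SPO11 cuts the DNA, and the recombinase DMC1 leads the broken ends to the homologous chromosome. The MSH4-MSH5 heterodimer and the helicase HFM1 stabilise the joined molecules, RNF212 and CCNB1IP1 (also named HEI10) act through SUMO and ubiquitin to select sites, and the endonuclease activity of MLH3 resolves the selected sites as crossovers. Breaks are made early in prophase, and by diplotene the homologues are held together at the chiasmata that crossovers left.

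The gene counts summed to between 26454326 and 31388750 per sample. Tdrd6 itself had 33220 and 39322 counts in Tdrd6+/- against 359 and 400 in Tdrd6-/- (log2 fold change -6.81, SE 0.17, adjusted p = 8.4e-18, edgeR quasi-likelihood fit, Benjamini-Hochberg over all genes, as for all gene counts below). The 14 markers of late pachytene and diplotene spermatocytes summed to between 9643 and 11158 CPM in each sample, where CPM are counts per 1000000 after TMM scaling. Ldhc alone gave 3612 and 3871 CPM in Tdrd6+/- and 3984 and 4909 CPM in Tdrd6-/-. Of the 14 markers 9 had positive fold changes. At a false discovery rate of 0.1 the fit called 1 of them, Piwil1, lower in Tdrd6-/- (log2 fold change -0.44, adjusted p = 0.077), where 4.8% of all genes tested were called. The 8 Sertoli cell markers summed to 84.6 and 84.3 CPM in Tdrd6+/- and to 100.5 and 107 CPM in Tdrd6-/-, and the 8 spermatogonial markers to between 80.8 and 101 CPM. Most of the spermatogonial sum came from Id4, with 79.0 and 59.4 CPM in Tdrd6+/- and 60.4 and 69.6 CPM in Tdrd6-/-. None of the 8 spermatogonial markers was called, and 6 had positive fold changes, with a median of 0.24. Introns took 31.0% and 27.1% of the reads tallied in Tdrd6+/- against 27.4% and 21.9% in Tdrd6-/-, so Tdrd6+/- replicate 1 and Tdrd6-/- replicate 2 stood farthest apart in intronic signal.

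The 8 genes spanned a wide range of levels. After division by exon length Mlh3 was highest at 35.1 ± 3.57 CPM per kb (SD, n = 4 samples), followed by Spo11 at 27.2 ± 1.67, Hfm1 at 19.7 ± 3.71, Rnf212 at 12.6 ± 1.95, Ccnb1ip1 at 9.96 ± 2.83, Msh4 at 4.39 ± 1.20, Msh5 at 3.59 ± 0.20 and Dmc1 at 1.61 ± 0.22 CPM per kb. Neighbours in that order were separate over the 4 samples except Rnf212 with Ccnb1ip1 and Msh4 with Msh5, whose values overlapped. Among 18827 genes with at least 10 counts Mlh3 ranked 1905 from the top and Dmc1 ranked 9970. The level of Rnf212 rests on a counted model of only 288 bp of exon and is the least certain of these. That of Mlh3 rests on a gene model whose exon segments did not match the counted ones in number. Its lowest sample, at 31.0 CPM per kb, lay close to the highest of Spo11, at 29.6, so their order is uncertain too.

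**Figure D1:**
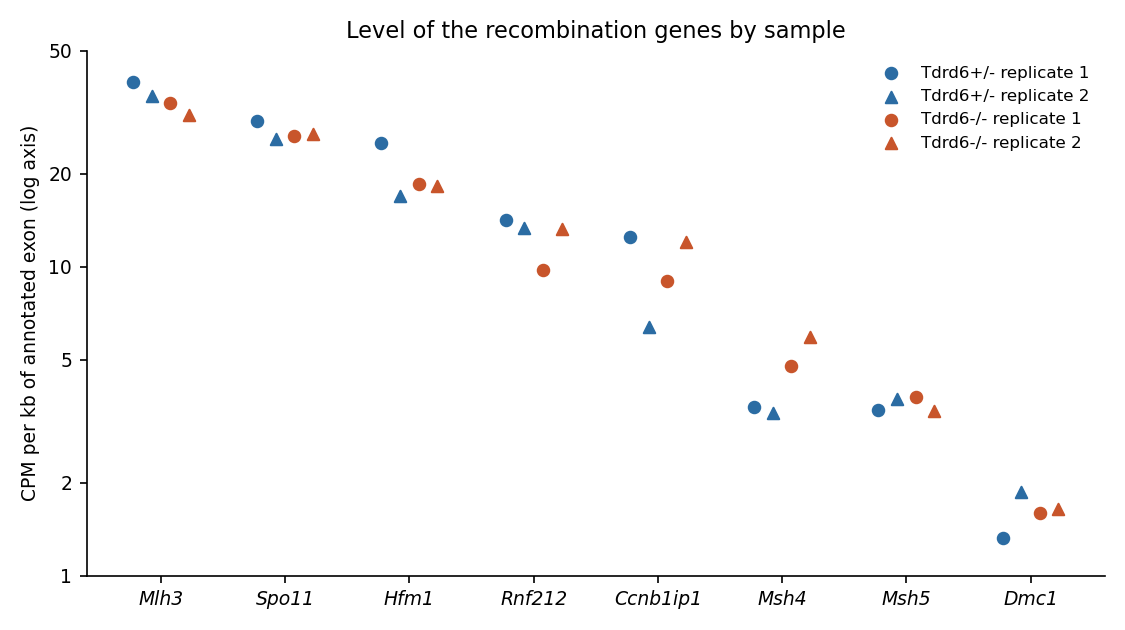
Each point is the level of a gene in a sample, in CPM per kb of annotated exon on a log axis; blue marks Tdrd6+/-, red Tdrd6-/-, circles replicate 1 and triangles replicate 2. Mlh3 and Spo11 lie at the top, Dmc1 at the bottom, and Msh4 is the gene whose red points both lie above its blue points.

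Of the 8 genes 1 differed in expression between the genotypes at a false discovery rate of 0.1. This was Msh4, which was higher in Tdrd6-/-. Over all 16555 genes tested 4.8% were called, 1.02% higher and 3.78% lower (169 and 625 genes, or 212 and 378 with library sizes alone), and with 8 genes a single call says nothing of the group. Scaled levels did not overlap between the genotypes for 3 of the 8 genes (Msh4, Mlh3 and Rnf212), where 43.5% of all genes tested showed such a separation. The fitted log2 fold changes of the 8 genes had a median of -0.03, against 0.01 over all genes tested, and 4 of the 8 were positive. In bulk samples a lower number of cells of a type and less RNA per cell cannot be told apart, and the tests measure only the spread between 2 pooled samples of a genotype.

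**Figure D2:**
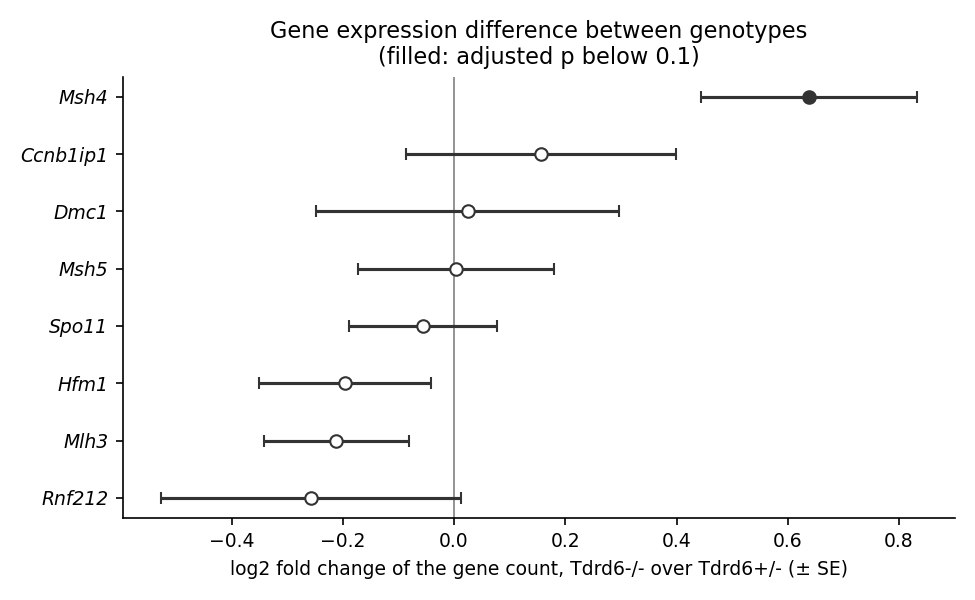
Points are log2 fold changes of the gene counts, Tdrd6-/- over Tdrd6+/-, and bars are standard errors of the edgeR fit; a filled point has an adjusted p below 0.1. Msh4 at 0.64 is the filled point, and the other 7 genes lie between -0.26 and 0.16.

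Spo11, on the plus strand of chromosome 2 (mm10, 172977700 to 172993576), makes the double-strand breaks that start recombination. It had 3041 and 2820 counts in Tdrd6+/- and 3286 and 3366 in Tdrd6-/-. After scaling the genotypes overlapped (109 ± 10.5 CPM in Tdrd6+/- and 105 ± 0.89 CPM in Tdrd6-/-, SD, n = 2 each, log2 fold change -0.06, SE 0.13, adjusted p = 0.912). None of its 9 introns, 25 exon segments or 15 annotated junctions was called.

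Spo11 is best known for exon 2, a coding exon of 114 bp (chromosome 2, 172981979 to 172982092) that is kept in the SPO11β form of early prophase and skipped in the SPO11α form of later prophase. The joined exon ends below show the 3 junctions that distinguish these forms, 15 bases from each side, with the downstream exon in capitals. They come from GENCODE transcripts on mm10, on the plus strand, and span chr2:172980025-172984015, chr2:172980025-172981978 and chr2:172982093-172984015.
Exon 1 to exon 3, skipping exon 2: ccgcgtggcctctagGTTTGATGATTCTGT
Exon 1 to exon 2: ccgcgtggcctctagTTCTGAGGTTCTTAC
Exon 2 to exon 3: ctgggaaaacataatGTTTGATGATTCTGT
The first line shares its upstream exon with the line below it and its downstream exon with the last, so a read that crosses the join counts for a single form.

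The skipping form prevailed in every sample. The exon 1 to exon 3 junction had 144 and 186 counts in Tdrd6+/- and 230 and 225 in Tdrd6-/-. The junction from exon 1 into exon 2 had 34, 19, 22 and 23 counts in the same order of samples, and the junction out of exon 2 had 28, 29, 25 and 35. Exon 2 inclusion, the share of junction counts that enter or leave exon 2 with the skipping count weighted by 2 since it has a single junction, was 17.7% and 11.4% in Tdrd6+/- and 9.27% and 11.4% in Tdrd6-/-. Tdrd6+/- replicate 1 stood above the other 3 samples, which lay close together. The means were 14.6% ± 4.44 and 10.3% ± 1.52 (SD, n = 2 each), an exact two-sided permutation test gave p = 0.333, and this is the smallest p that 2 against 2 samples allow. By the upstream junction alone inclusion was 19.1% (95% Wilson interval 14.003 to 25.5) in Tdrd6+/- replicate 1 and 9.27% (6.01 to 14.021) in replicate 2, intervals that cover counting error only. In Tdrd6-/- it was 8.73% (5.84 to 12.9) and 9.27% (6.26 to 13.5). In the usage model, which compares a feature with the rest of its gene, the skipping junction had the smallest p of the gene's junctions, with a log2 fold change of 0.30 (SE 0.19, unadjusted p = 0.119), and was not called.

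**Figure D3:**
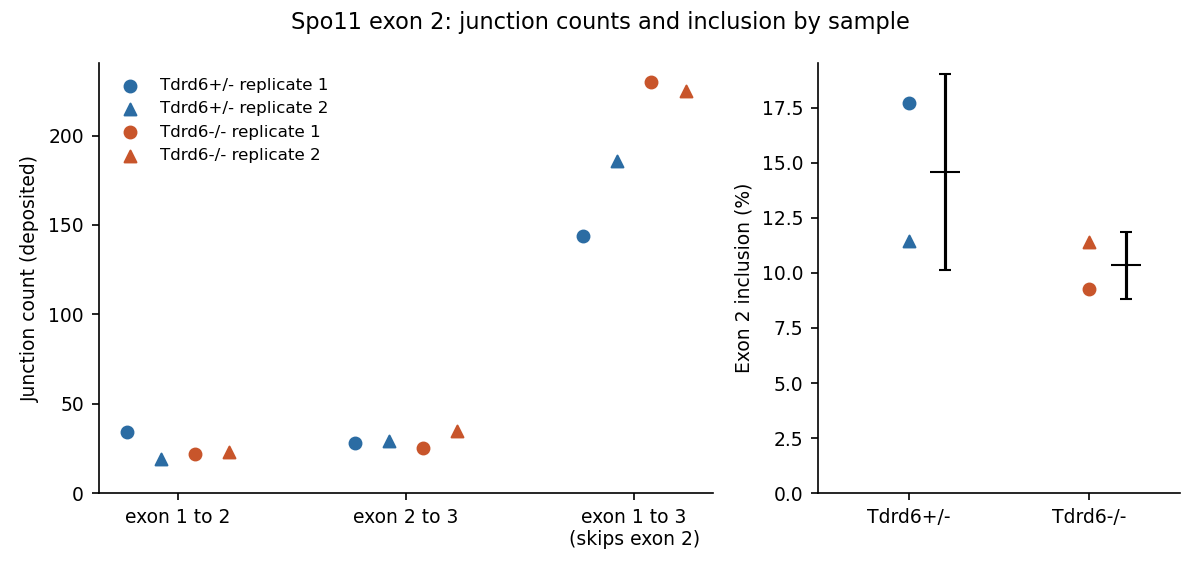
Left, deposited counts of the 3 Spo11 junctions around exon 2 by sample; right, exon 2 inclusion in percent, with the mean and SD of each genotype in black (n = 2). Skipping counts of 144 to 230 stand far above the counts of 19 to 35 at either inclusion junction.

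The introns on both sides of exon 2 also held the most intronic counts of Spo11. The upstream intron was counted 475, 273, 386 and 339 times and the downstream intron 371, 233, 326 and 319 times, or 754 and 650 pooled counts per kb. The other 6 introns that were detected in every sample held 167 to 528 per kb. Neither flanking intron differed in usage (log2 fold change 0.07 with unadjusted p = 0.701 and 0.25 with unadjusted p = 0.189). An unannotated junction of Spo11 was counted 74, 103, 90 and 120 times, below the median annotated junction of the gene, and overlapped between genotypes.

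Dmc1, on the minus strand of chromosome 15 (mm10, 79561497 to 79605109), encodes the meiosis-specific recombinase. Its counts were the lowest of the 8 genes per length, with 77 and 115 in Tdrd6+/- and 112 and 117 in Tdrd6-/- (3.53 ± 0.84 and 3.60 ± 0.08 CPM, SD, n = 2 each). The genotypes overlapped (log2 fold change 0.02, SE 0.27, adjusted p = 0.983). Intronic counts outnumbered its gene counts in every sample, with 183 and 253 in Tdrd6+/- and 219 and 148 in Tdrd6-/-. That is 238, 220, 196 and 126 intron counts per 100 gene counts, and pooled it placed Dmc1 at percentile 79.3 of 15190 genes, the highest of the 8. Its most used intron was the 6th in the files, with 41, 46, 52 and 28 counts. Its junctions had at most 13 counts in a sample where they were highest, so exon or junction differences were not detectable at this depth, and none of its features passed the filter on mean counts.

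Msh4, on the minus strand of chromosome 3 (mm10, 153857149 to 153906138), encodes a MutS homologue that acts in meiosis rather than in mismatch repair. It had 306 and 311 counts in Tdrd6+/- and 503 and 629 in Tdrd6-/-. Both Tdrd6-/- samples lay above both Tdrd6+/- samples. The scaled levels were 11.4 ± 0.37 CPM and 17.8 ± 2.65 CPM (SD, n = 2 each), and the gene rose with a log2 fold change of 0.64 (SE 0.19, adjusted p = 0.081). The call was lost when Tdrd6+/- replicate 1 (adjusted p = 0.131), Tdrd6+/- replicate 2 (0.1503) or Tdrd6-/- replicate 2 (0.718) was left out or no filter on low counts was set (0.325), and across all alternatives the adjusted p ran from 0.033 to 0.718. The log2 fold change stayed between 0.49 and 0.68 in the same 4 fits.

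Markers of other cells moved in these samples as well. Of 8 round spermatid markers 4 had enough counts to be tested and 2 of these rose, where 1.02% of all genes tested were called higher. These were Acrv1 (log2 fold change 0.96, adjusted p = 0.057) and Spaca1 (0.83, adjusted p = 0.036), both proteins of the acrosome. The list summed to 11.6 and 15.7 CPM in Tdrd6+/- and to 25.7 and 23.8 CPM in Tdrd6-/-, while the protamine gene Prm1 was at 0 in 3 samples and had 4 counts in Tdrd6-/- replicate 2. Of 8 markers of preleptotene to zygotene cells none was called and 6 had positive fold changes. That list summed to 192 and 165 CPM in Tdrd6+/- and to 188 and 206 CPM in Tdrd6-/-, of which Dazl alone gave 112, 86.2, 101 and 115 CPM. Within it the retinoic acid response gene Stra8 had 51 and 59 counts in Tdrd6+/- and 95 and 150 in Tdrd6-/- (log2 fold change 0.92, SE 0.30, adjusted p = 0.109). The meiotic cohesin gene Rec8 had 96 and 148 against 233 and 221 counts (log2 fold change 0.67, SE 0.25, adjusted p = 0.184). Neither passed the test, and neither overlapped between the genotypes, as was so for 43.5% of all genes tested. Of the other markers of this list Prdm9 and Meiob had negative log2 fold changes (-0.13 and -0.02). Those of Zcwpw1, Dazl, Scml2 and Rhox13 were 0.03, 0.13, 0.29 and 0.61. Of the 8 Sertoli cell markers none was called and 7 had positive fold changes, with a median of 0.34. The other, Sox9, had a log2 fold change of -0.78 (SE 0.34, adjusted p = 0.280). Clu alone gave 38.5 and 42.7 CPM of the Sertoli sum in Tdrd6+/- and 47.4 and 60.4 CPM in Tdrd6-/-. The part of all these markers in the Msh4 result was not tested.

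The Msh4 difference ran along the transcript. Of its 20 exon segments 19 had scaled counts in Tdrd6-/- above both Tdrd6+/- samples, against 15.9% of all exon segments with at least 10 counts. These segments share reads and the gene count, so they are no separate evidence. Relative to the rest of the gene the first exon, which holds coding sequence, had the smallest p of the exon segments, with 10 and 14 counts in Tdrd6+/- and 43 and 35 in Tdrd6-/- (log2 fold change 0.88, SE 0.50, unadjusted p = 0.073). The junction from the first to the second exon had 3 and 1 counts against 17 and 12 (unadjusted p = 0.030). The junction with the smallest p, in the 3′ part of the gene (chromosome 3, 153872391 to 153873625), had 8 and 5 counts against 27 and 34 (log2 fold change 1.41, SE 0.59, unadjusted p = 0.015). None of these 3 passed the filter on mean counts, so none has an adjusted p.

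The first intron of Msh4 (chromosome 3, 153901589 to 153905671) was counted 28 and 31 times in Tdrd6+/- and 58 and 58 times in Tdrd6-/-. Its share of the gene's intron counts was 10.3% ± 1.80 and 18.9% ± 3.09 (SD, n = 2 each), and the samples of the genotypes did not overlap. The same held for 6 of the 19 fitted introns of Msh4 and 34 of the 114 of the 8 genes, this intron included. The usage model gave a log2 fold change of 1.01 (SE 0.37, unadjusted p = 0.006), the smallest p among the 114 fitted introns of the 8 genes, and of those 1 had an unadjusted p under 0.05 where 4.32% of all fitted introns did. Its mean count lay below the filter and it has no adjusted p. The 8th intron from the 5′ end carried the most counts, 83 and 57 against 56 and 70. These counts overlapped, but its share of the intron counts was lower in Tdrd6-/-, 20.4% and 20.2% against 26.9% and 21.3% (log2 fold change -0.33, SE 0.31, unadjusted p = 0.297).

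**Figure D4:**
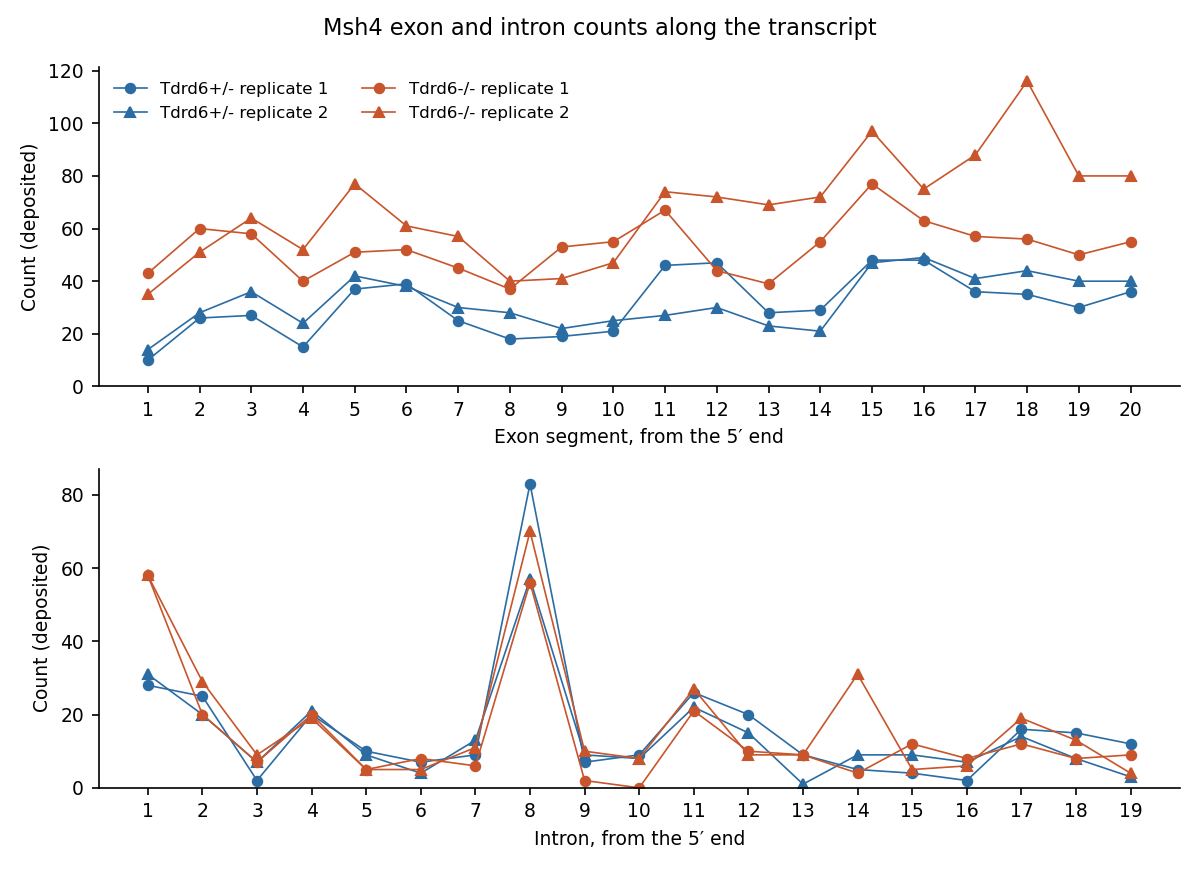
Deposited counts of each Msh4 exon segment (top) and intron (bottom) in order from the 5′ end, with a line for each sample; blue marks Tdrd6+/- and red Tdrd6-/-. The red lines lie above the blue ones over nearly the whole transcript in the upper panel, while in the lower panel they lie higher at the first intron, lower at the 5th and the 12th, where counts are at most 20, and do not separate at the other introns.

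Over the whole gene the intronic counts of Msh4 overlapped between the genotypes, with 309 and 267 in Tdrd6+/- and 275 and 347 in Tdrd6-/-, while its gene counts rose. This left 101 and 85.9 intron counts per 100 gene counts in Tdrd6+/- and 54.7 and 55.2 in Tdrd6-/-. Over all genes together the same measure was 52.7 and 41.9 in Tdrd6+/- and 42.5 and 30.6 in Tdrd6-/-. In the model of the intron share, which scales intron totals and gene counts separately, the log2 fold change of Msh4 was -0.48 (SE 0.25, unadjusted p = 0.056), with no adjusted p because of low counts.

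Msh5, on the minus strand of chromosome 17 (mm10, 35028605 to 35046745), encodes the partner of MSH4. It was counted 496 and 576 times in Tdrd6+/- and 660 and 604 times in Tdrd6-/-, and the scaled levels were 19.8 ± 1.23 and 19.9 ± 1.41 CPM (SD, n = 2 each; log2 fold change 0.00, SE 0.18, adjusted p = 0.995). The ratio of Msh4 to Msh5 in CPM per kb was therefore 1.03 and 0.90 in Tdrd6+/- and 1.27 and 1.73 in Tdrd6-/-, without overlap. The exact permutation p was the smallest that the design allows, 0.333. The ratio was formed after the values were seen and is no evidence beyond the Msh4 counts. A coding exon of 36 bp (chromosome 17, 35043729 to 35043764) was skipped in some Msh5 transcripts. Its skipping junction had 1 and 4 counts in Tdrd6+/- and 9 and 6 in Tdrd6-/-, which put inclusion at 91.7% and 86.7% against 74.6% and 80.3%. The genotypes did not overlap (means 89.2% ± 3.54 and 77.5% ± 4.02, SD, n = 2 each), but the values rest on these few reads. By share of the gene count, 10 of the 27 fitted annotated junctions of Msh5 did not overlap. No feature of Msh5 was called. None of its introns or junctions passed the filter on mean counts, so the skipping junction could not have been called. Its intron with the smallest p had at most 5 counts in a sample (unadjusted p = 0.269).

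Hfm1, on the minus strand of chromosome 5 (mm10, 106840192 to 106926321), encodes a DNA helicase needed for most crossovers. It was counted 4388 and 3140 times in Tdrd6+/- and 3893 and 3888 times in Tdrd6-/-. The Tdrd6+/- samples lay on either side of the Tdrd6-/- samples, at 168 and 113 CPM against 123 and 121 CPM, and the log2 fold change was -0.20 (SE 0.15, adjusted p = 0.650). Without Tdrd6+/- replicate 2 it was called lower (log2 fold change -0.45, adjusted p = 0.065), and without Tdrd6+/- replicate 1 the direction turned (0.13, adjusted p = 0.805). The gene has 40 introns, all fitted, and none had an unadjusted p under 0.05. Its exon segment with the smallest p, a coding segment of 98 bp, had 200, 131, 215 and 222 counts (log2 fold change 0.38, SE 0.18, unadjusted p = 0.035, adjusted p = 1.000).

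Hfm1 held the most counted unannotated junction of the 8 genes, with 150 and 108 counts in Tdrd6+/- and 111 and 102 in Tdrd6-/- (log2 fold change -0.34, SE 0.21, unadjusted p = 0.113). Of the 49 annotated junctions of the gene 7 had no count in any sample. The intron of 5340 bp at chromosome 5, 106847778 to 106853117, held the most intronic counts, 417, 295, 326 and 302, and the annotated junction that spans it was among those at 0. The unannotated junction has no coordinates in the deposited counts, so whether it lies there is unknown.

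Mlh3, on the minus strand of chromosome 12 (mm10, 85234520 to 85270599), encodes a MutL homologue whose endonuclease activity is needed for crossovers. It was counted 5663 and 5440 times in Tdrd6+/- and 5873 and 5428 times in Tdrd6-/-. Scaled levels were 206 ± 14.8 CPM and 178 ± 11.4 CPM (SD, n = 2 each) and did not overlap, but the difference did not pass the test (log2 fold change -0.21, SE 0.13, adjusted p = 0.516). A single exon segment took most of the gene's counts, with 3990, 3803, 4135 and 3802. The segments with an unadjusted p under 0.05 were 3 of 13. The last in genome order, at the 5′ end of this minus-strand gene, had 17 and 17 against 34 and 33 counts (log2 fold change 0.96, SE 0.45, unadjusted p = 0.032), and the segment beside it had 92 and 81 against 142 and 109 counts (0.52, SE 0.23, unadjusted p = 0.027, adjusted p = 0.996). The segment numbered 2 had 326 and 324 against 257 and 281 counts (-0.31, SE 0.16, unadjusted p = 0.046). The junction of the first intron went the way of the 5′ segments, with 80 and 65 against 111 and 89 counts (0.44, SE 0.25, unadjusted p = 0.074). None was called, and the coordinates of the Mlh3 segments could not be placed. In all, 6 of the 309 fitted exon segments and junctions of the 8 genes had an unadjusted p under 0.05, against 2.95% of all those fitted in the series.

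Rnf212 and Ccnb1ip1 encode RING-domain proteins that select crossover sites. Rnf212, on the minus strand of chromosome 5 (mm10, 108729290 to 108774982), was counted 107 and 107 times in Tdrd6+/- and 89 and 122 times in Tdrd6-/- (3.96 ± 0.17 and 3.31 ± 0.71 CPM, SD, n = 2 each; log2 fold change -0.26, SE 0.27, adjusted p = 0.763). It was the gene of the 8 with more intron counts per 100 gene counts in both Tdrd6-/- samples, 60.7 and 48.4 against 43.9 and 42.1 in Tdrd6+/- (intron share log2 fold change 0.61, SE 0.43, unadjusted p = 0.155, on 45 to 59 intron counts a sample), and 5.65% of all genes with at least 10 intron counts were higher without overlap. An antisense gene lies in an intron of Rnf212, and since the use of strand in counting is not stated, reads of both genes cannot be told apart there. Its unannotated junction had 27, 17, 15 and 27 counts, of the order of its annotated junctions.

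Ccnb1ip1, on the minus strand of chromosome 14 (mm10, 50789248 to 50807732), varied most between samples of a genotype. It was counted 492 and 269 times in Tdrd6+/- and 428 and 580 times in Tdrd6-/- (14.2 ± 6.46 and 15.8 ± 3.24 CPM, SD, n = 2 each; log2 fold change 0.16, SE 0.24, adjusted p = 0.858). It held the fewest intronic counts per gene count of the 8, 17.7 and 14.5 per 100 in Tdrd6+/- and 14.5 and 13.4 in Tdrd6-/-, at percentile 11.8 of all genes. Its 3 introns, 4 exon segments and 3 junctions gave unadjusted p-values of 0.319 or more.

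Across the 8 genes intron usage was tested for 114 of 122 introns, of which 14 passed the filter on mean counts and none was called, where 1.94% of all introns past that filter were called. Of the 338 exon segments and junctions 150 passed the filter and none was called, where 0.221% of all were. At that rate none called among 150 is not a result about these genes. For the intron share 3 of the 8 genes passed the filter, Spo11, Hfm1 and Mlh3, with adjusted p between 0.887 and 0.968, where 4.21% of genes past the filter were called. None of the 8 had an unadjusted p under 0.05 for the intron share, where 6.3% of all fitted genes did. Intron counts per gene count were lower in both Tdrd6-/- samples than in both Tdrd6+/- samples for 6 of the 8 genes, where 35.7% of all genes with at least 10 intron counts showed this. These were Dmc1, Msh4, Msh5, Hfm1, Mlh3 and, by a margin beyond the digits given above, Ccnb1ip1. Spo11 overlapped, with 47.9 and 34.5 per 100 in Tdrd6+/- and 35.6 and 33.6 in Tdrd6-/-. Over all genes together Tdrd6+/- replicate 1 was highest and Tdrd6-/- replicate 2 lowest. With intron totals and gene counts scaled separately, which takes out differences between samples in the overall intron level, the log2 fold changes of the intron share were 0.08 for Hfm1, 0.07 for Ccnb1ip1, 0.04 for Spo11, 0.61 for Rnf212, -0.01 for Msh5, -0.08 for Mlh3, -0.26 for Dmc1 and -0.48 for Msh4, or 4 positive and 4 negative. With the same size factors for both counts they were -0.19 for Hfm1, -0.21 for Ccnb1ip1, -0.24 for Spo11, 0.33 for Rnf212, -0.28 for Msh5, -0.36 for Mlh3, -0.53 for Dmc1 and -0.76 for Msh4.

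**Figure D5:**
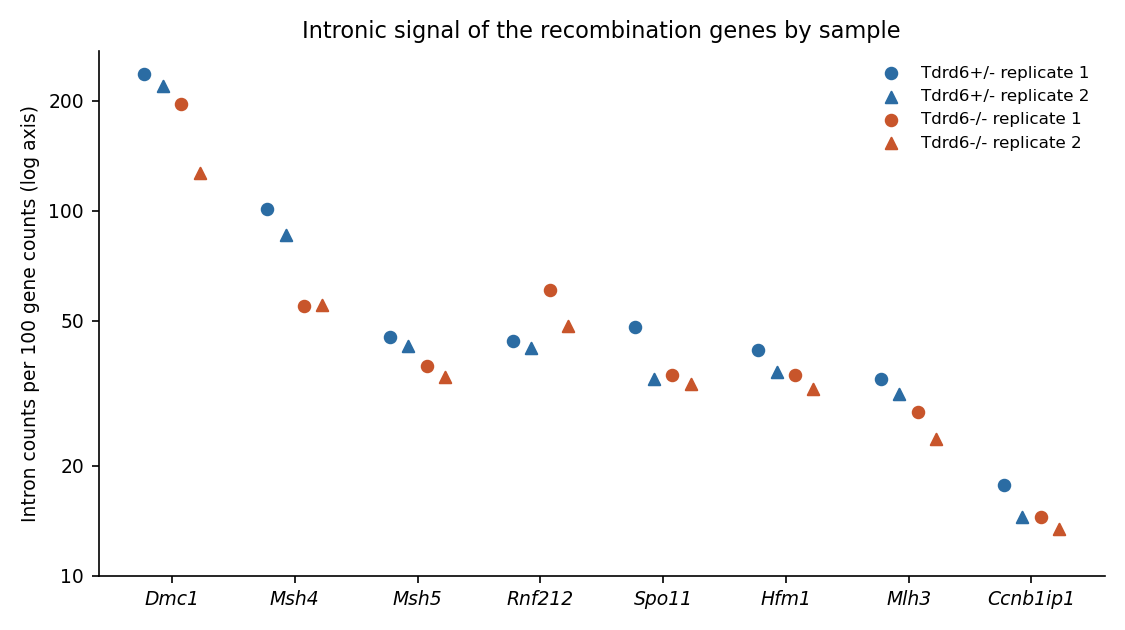
Intron counts per 100 gene counts for each gene and sample, on a log axis; blue marks Tdrd6+/-, red Tdrd6-/-, circles replicate 1 and triangles replicate 2. Dmc1 lies above 100 in all samples, Msh4 drops from 101 and 85.9 to 54.7 and 55.2, and Rnf212 is the gene whose red points lie above its blue points.

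Of a wider list of 69 recombination genes outside these 8, 61 were matched to a counted gene and 60 tested. Of these 1 rose and 3 fell, and the median log2 fold change was 0.02. Over all genes tested 1.02% were called higher and 3.78% lower, and so few calls are not a result about the list. Values are given for 3 of these 4 genes. Tex15, which is needed for the repair of meiotic breaks, rose from 620 and 707 counts to 1581 and 1212 (log2 fold change 0.84, SE 0.17, adjusted p = 0.005). Mcm9, a helicase of recombination repair, fell from 1025 and 1069 counts to 873 and 793 (-0.57, SE 0.16, adjusted p = 0.051). Slx4, a scaffold of structure-selective nucleases, was counted 11101, 15451, 11939 and 10394 times and fell by the fit (-0.48, SE 0.14, adjusted p = 0.075). The raw counts of the genotypes overlap, but they are not scaled for depth. Of the 10 tested genes of break formation none was called. Of the 11 synaptonemal complex genes, 10 of which were tested, 2 rose, Sycp1 (0.60, SE 0.16, adjusted p = 0.047) and Sycp2 (0.44, SE 0.14, adjusted p = 0.09997), both structural proteins of that complex. The list's median was 0.23, and 1.02% of all genes tested were called higher.

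The genes of the wider list whose levels lay nearest to each of the 8 over the 4 samples, by the root mean square difference of log2 CPM per kb among 60 genes, were found as a description of level. Rbbp8 was nearest to Spo11 (0.16), Mei1 to Dmc1 (0.11), Exo1 to Msh4 (0.34), Trip13 to Msh5 (0.24), Msh6 to Hfm1 (0.20), Hsf2bp to Mlh3 (0.20), Rmi1 to Rnf212 (0.19) and Hormad2 to Ccnb1ip1 (0.30). The second nearest were Fkbp6 to Spo11 (0.24), Mcm8 to Dmc1 (0.23), Eme1 to Msh4 (0.37), Exo1 to Msh5 (0.31), Brca2 to Hfm1 (0.22), Brme1 to Mlh3 (0.21), Meiob to Rnf212 (0.21) and Rpa2 to Ccnb1ip1 (0.33). Msh4 had the largest distance to its nearest gene.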

How the data were processed

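Read counts per gene, exon segment, splice junction and intron were used as the authors deposited them, without normalization. Per the labels, RNA was depleted of ribosomal RNA, libraries were made with a directional kit, and bcl2fastq 1.8.4 was among the tools. Per the study, fragments were aligned to mm10 with GSNAP and annotated with Ensembl 75. Symbols and positions came from GENCODE M21, reduced to older transcripts, whose numbers of introns and junctions matched the deposited rows for all 8 genes, and of exon segments for 7. The authors' packages for usage were not at hand, so their models were fitted with DESeq2 1.42.0: a feature against the rest of its gene, features with at least 10 counts, a filter on mean counts and a false discovery rate of 0.1. Gene counts were tested with edgeR 4.0.16 (TMM factors, filterByExpr). Levels are CPM per kb of exon in these gene models. For Mlh3, whose exon segments did not match in number, that length may differ from the counted exons. All 4 samples entered each fit, with p-values adjusted over all features. The scripts were tested on simulated data. Named for each gene were the features with the most counts and the smallest p, all calls, and called genes of the wider lists; the ratio of Msh4 to Msh5 and counts of non-overlapping segments were added after the values were seen. The members and lists were chosen with earlier results of these data known. A called gene of the wider list is not reported here. Replicate numbers were not stated to pair samples.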

Additional observations from a re-analysis of the deposited data

How the results depend on the processing

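No intron, exon segment, junction or intron share of the 8 genes was called in any of the fits run, including edgeR's usage test, the gene count as the reference, other size factors, other filters and the removal of each sample. The counts over all genes and features moved more. Without a filter on low counts 75 genes were called, 2 higher and 73 lower, and 0 of the 8 (2188 genes had an unadjusted p under 0.05 in edgeR, and Msh4 an adjusted p of 0.325). With library sizes alone 378 genes were called lower and Spo11 turned to 0.0251 on the log2 scale. Removing a sample gave 257 to 1064 gene calls, 59 to 320 higher and 147 to 744 lower, with 0 to 1 of the 8. The genes called higher fell to 59 without Tdrd6+/- replicate 1 and to 110 without Tdrd6-/- replicate 2. Intron usage calls were 2 with edgeR's usage test, 1266 with the gene count as the reference, 220 without independent filtering and 4 to 1136 with a sample removed, 4 without Tdrd6+/- replicate 1 and 13 without Tdrd6-/- replicate 2. Exon and junction calls were 72 with edgeR's usage test and 51 to 762 with a sample removed, 51 without Tdrd6-/- replicate 2. Intron share calls were 87 with shared size factors, 101 without independent filtering and 2 to 152 with a sample removed, 2 without Tdrd6-/- replicate 2. The cause of these shifts was not tested.

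With a sample removed, the log2 fold change of gene expression ranged from -0.15 to 0.0580 for Spo11, from -0.19 to 0.29 for Dmc1, from -0.0701 to 0.0842 for Msh5, from -0.45 to 0.13 for Hfm1 and from -0.24 to 0.72 for Ccnb1ip1. That of the intron share ranged from -0.14 to 0.22 for Spo11, from -0.15 to 0.15 for Msh5, from -0.0568 to 0.22 for Hfm1 and from -0.0774 to 0.22 for Ccnb1ip1. With shared size factors the intron share was -0.24 for Spo11, -0.19 for Hfm1 and -0.21 for Ccnb1ip1. The usage of the Ccnb1ip1 intron named by the smallest p ranged from -0.0632 to 0.36, and that of Rnf212 turned to 0.39 with the gene count as the reference. Of 381 values of single genes and features under an alternative, 355 kept their direction and their side of the threshold, 21 turned direction and the rest changed side only. In the main fits Msh4 expression was the only 1 of these results that was called. For the others, keeping their side meant staying uncalled, which says little.

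The labels do not say that equal replicate numbers mark pairs, and the deviations of same-numbered samples correlated at -0.11 over 12347 genes and 0.04 over 44346 introns. With the replicate number as a block 1046 genes, 881 introns, 306 exon segments and junctions and 121 intron shares were called, with Msh4 the only one of the 8 genes. With the crossed pairing, chosen after seeing the data, 1175 genes, 364 of them higher, and 279 exon segments and junctions were called.

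Depth limits Dmc1, Rnf212 and the junctions of Msh4 and Msh5 most, where a sample gave few counts to a feature.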
